A study of Arabidopsis thaliana with 2 samples.

Results

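The expression of 10 ethylene response factors (ERFs) of Arabidopsis thaliana, known from rapid responses to wounding, cold, osmotic stress and pathogens, was followed in tissue labelled as flower buds, in 2 genotypes. The listed genes were ERF1 (AT3G23240), ERF2 (AT5G47220), ERF4 (AT3G15210), ERF5 (AT5G47230), ERF6 (AT4G17490), ERF11 (AT1G28370), ERF13 (AT2G44840), ERF104 (AT5G61600), ERF105 (AT5G51190) and ORA59 (AT1G06160), and a row was taken for each by its gene identifier. Of the 10 genes, 7 had a row among the 6791 rows of the table, and ERF1, ERF4 and ORA59 had no row in it. The table gave 1 expression value per genotype in RPKM, the reads of a gene per kilobase of its transcript, scaled by the number of mapped reads, and nearly every row differed by 1.5-fold or more between the genotypes. The missing genes are therefore not analysed here, and nothing is said of their levels.

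The groups were ago1-27 mutant plants and wild-type plants, both grown in soil under long days, with open flower buds collected from each, per the labels. ago1-27 is a weak allele of ARGONAUTE1 (AGO1), whose protein loads most plant microRNAs. Each genotype was described as 3 biological replicates but was given as a single value, so no difference below has a test. The intervals cover counting error only, and rest on the reads of 1 average library where a value was not taken apart into libraries. The libraries held 11407616 to 12294210 reads for ago1-27 and 10453032 to 13887069 reads for wild type, as read from the steps between low values. AGO1 itself stood at 175 RPKM in ago1-27 and 53.1 RPKM in wild type; the allele is known as a single amino acid change, so this level does not check the label. Values of a whole tissue cannot tell apart fewer cells of a type and less RNA per cell.

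The tissue label was checked with marker genes, and AP1, LFY and the measured pollen markers were low in wild type. Of 11 flower genes 4 had a row, 3 higher and 1 lower in ago1-27, while AP3, PI and AG, which define petals, stamens and carpels, had no row in the table. AP1 was 0.733 RPKM in ago1-27 and 0.0779 RPKM in wild type (22 and 2 reads of 2 libraries per genotype, under the minimum for a call). LFY was 1.17 RPKM in ago1-27 and 0.151 RPKM in wild type (18 and 2 reads of 1 library per genotype). FUL was 9.98 RPKM in ago1-27 and 3.22 RPKM in wild type, and SEP4 was 6.22 RPKM in ago1-27 and 12.5 RPKM in wild type. The 3 of 5 pollen genes with a row summed to 3.99 RPKM in ago1-27 and 2.72 RPKM in wild type, and 2 of them came from 1 library per genotype. Of 7 leaf genes 4 were measured, all lower in ago1-27 like the ERF factors, with a summed level of 3833 RPKM in ago1-27 and 6143 RPKM in wild type. The levels of AP1, LFY and the pollen genes go against the label of flower buds, most of all in wild type, whereas FUL and SEP4 stood higher. The high levels of the leaf genes alone do not settle the tissue. The tissue is therefore called by its label only. Of 7 seed genes 6 were measured, all higher, with a summed level of 45.1 RPKM in ago1-27 and 3.36 RPKM in wild type. The part of tissue composition in the ERF values was not tested.

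ERF proteins share the AP2/ERF domain, a DNA-binding fold that contacts the GCC box and related elements in promoters. ERF1, ERF2, ERF5, ERF6, ERF13, ERF104, ERF105 and ORA59 belong to the group whose best known proteins activate transcription, and ERF4 and ERF11 belong to a group of repressors that carry an EAR motif. Many of these genes are known to be transcribed within minutes of a stimulus, and some of the proteins, among them ERF6 and ERF104, are phosphorylated by the MAP kinases MPK3 or MPK6. ERF1 and ORA59 are known to join ethylene and jasmonate signals at the promoters of defensin genes.

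All 7 measured factors had lower values in ago1-27 than in wild type. Their summed level was 45.7 RPKM in ago1-27 and 173 RPKM in wild type, 3.78-fold lower in the mutant, and their median log2 ratio was -1.87, against 0.70 for the whole table and -1.03 for its rows with a ratio below 1. A gene was called lower or higher where log2(RPKM + 1) differed by 1 or more and the RPKM was at least 1 in either genotype. By that rule 5 of the 7 factors (71.4%) were called lower and 0 higher, against 10.5% of the table called lower and 11.3% called higher. A ratio below 1 was found for 30.6% of all rows. All 7 factors also had ratios below 1 when the columns were quantile normalized. Dividing the ago1-27 column by the median ratio lowers every log2 ratio by 0.70, so there the 7 ratios stayed below 1 by construction. The table's shares moved with the scale, so that 28.9% was called lower and 2.95% higher with the median-ratio rescaling, and 18.4% lower and 6% higher with quantile normalization. On both of these scales 7 of the 7 factors were called lower.

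**Figure D1:**
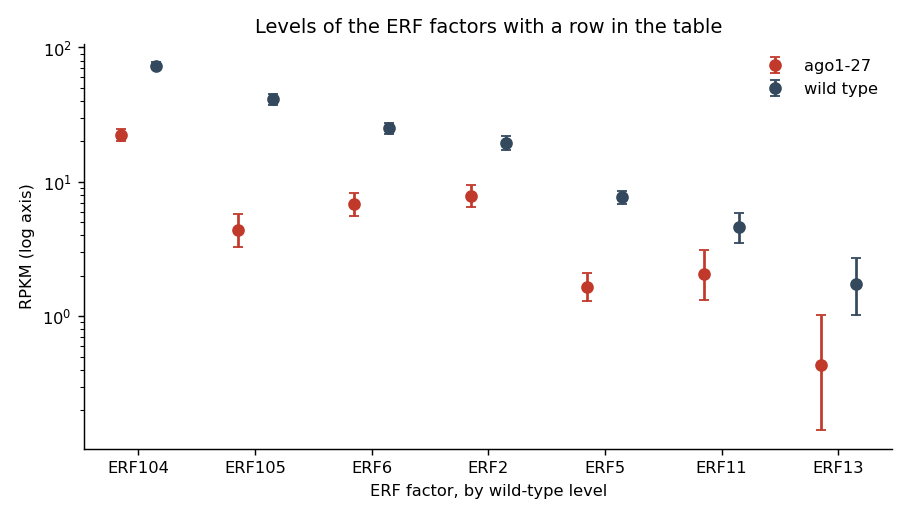
Level of each measured ERF factor in ago1-27 (red) and wild type (dark blue), in RPKM on a log axis, 1 value per genotype, with 95% intervals for counting error. The ago1-27 value lies below the wild-type value for all 7 genes, the intervals of the 2 genotypes overlap for none of them, and they come closest for ERF13. The share of all rows with separate intervals was not computed, and nearly every row of the table differed by 1.5-fold or more.

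Among the activators, ERF104, a substrate of MPK6 in flagellin responses, had the highest level in both genotypes. It stood at 22.4 RPKM in ago1-27 and 73.2 RPKM in wild type, 3.27-fold lower in the mutant (95% counting interval 2.91 to 3.68). It made up 49.0% of the summed level of the 7 factors in ago1-27 and 42.3% in wild type. The gene lies on chromosome 5 at 24766344 to 24767732 on the minus strand (TAIR10.1), and no other annotated gene overlaps it.

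ERF105, known from cold responses and freezing tolerance, had the largest difference of the 7. It stood at 4.42 RPKM in ago1-27 and 41.2 RPKM in wild type, 9.31-fold lower in the mutant (6.97 to 12.7), an interval that lies above those of ERF104, ERF6, ERF2, ERF5 and ERF11 and within that of ERF13. Only 1.71% of the rows of the table had a lower ratio. Its share of the summed level was 9.67% in ago1-27 and 23.8% in wild type. ERF105 (chromosome 5, 20800473 to 20801437, minus strand) lies wholly inside an exon of AT5G51180, a gene annotated in TAIR10.1 on the opposite strand, and the libraries did not keep strand, so reads of the pair cannot be told apart there. AT5G51180 stood at 22.0 RPKM in ago1-27 and 14.7 RPKM in wild type, the opposite direction.

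ERF6 and ERF5 are close relatives that, in leaves under osmotic stress, are known to limit growth and to turn on other stress genes. ERF6 (chromosome 4, 9752824 to 9754161, minus strand) stood at 6.84 RPKM in ago1-27 and 25.0 RPKM in wild type, 3.66-fold lower (2.97 to 4.59). ERF5 (chromosome 5, 19179881 to 19181182, plus strand) stood at 1.66 RPKM in ago1-27 and 7.72 RPKM in wild type, 4.65-fold lower (3.58 to 6.08). The intervals of these fold differences overlap.

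ERF5 is the one factor whose value could be taken apart into several libraries, because its low numbers were whole reads at a length of 1191 bases in 3 libraries of each genotype. The ago1-27 libraries held 21, 30 and 20 ERF5 reads, which are 1.55, 2.05 and 1.38 RPKM, and the wild-type libraries held 124, 107 and 95 reads, which are 7.50, 8.02 and 7.63 RPKM. The means were 1.66 ± 0.348 RPKM in ago1-27 and 7.72 ± 0.274 RPKM in wild type (SD, n = 3 each). Within the 3 library pairs the ratio was 0.206, 0.255 and 0.181. The highest ago1-27 library lay under the lowest wild-type library. How often this holds among other rows that could be split was not counted, and nearly every row of the table differed by 1.5-fold or more. The splitting rule was chosen after the data were seen, and no test was run on these values.

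ERF2, an activator linked to jasmonate-dependent defence, lies near ERF5 on chromosome 5 at 19171643 to 19172956 on the minus strand. It stood at 7.89 RPKM in ago1-27 and 19.5 RPKM in wild type, a ratio of 0.404 (95% counting interval 0.3253 to 0.4996) and 2.48-fold lower. Its difference was the smallest of the 5 factors called lower.

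ERF13 and ERF11 had the lowest wild-type levels and were not called at the threshold. ERF13 (chromosome 2, 18495215 to 18496327, plus strand), whose overexpression is known to alter responses to abscisic acid, stood at 0.436 RPKM in ago1-27 and 1.72 RPKM in wild type, 3.95-fold lower (1.41 to 13.6). Its value came from 1 library per genotype, with 5 reads in ago1-27 and 18 reads in wild type. ERF11 (chromosome 1, 9955774 to 9956980, minus strand), the only repressor measured and known to act on genes of ethylene synthesis, stood at 2.07 RPKM in ago1-27 and 4.59 RPKM in wild type, 2.21-fold lower (1.35 to 3.75). It too came from 1 library per genotype, with 23 reads in ago1-27 and 62 reads in wild type.

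Both differences were under 1 on the log2(RPKM + 1) scale, at -0.92 for ERF13 and -0.86 for ERF11, where the pseudocount weighs most on low genes. With no pseudocount they came to -1.98 for ERF13 and -1.15 for ERF11, and 7 of 7 factors were then called lower. The table's genes called lower also rose, to 1017 from 694. The libraries other than the one behind each value were not analysed here for ERF11 and ERF13.

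**Figure D2:**
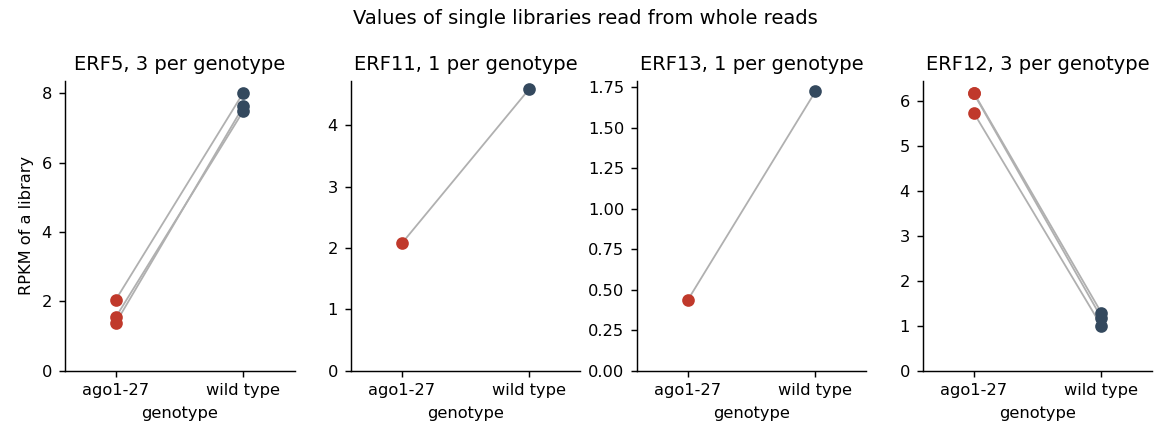
RPKM of single libraries in ago1-27 (red) and wild type (dark blue) for genes whose values resolved into whole reads, with grey lines joining libraries of the same number and axes that start at 0. ERF5 and ERF12 have 3 libraries per genotype, lower in ago1-27 for ERF5 and higher for ERF12, and ERF11 and ERF13 have 1 library per genotype.

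The order of the factors differed between the genotypes. In ago1-27 the levels ran ERF104, ERF2, ERF6, ERF105, ERF11, ERF5 and ERF13, and the counting intervals overlapped between ERF2 and ERF6, between ERF6 and ERF105, and between ERF11 and ERF5. In wild type they ran ERF104, ERF105, ERF6, ERF2, ERF5, ERF11 and ERF13, and no interval overlapped that of the next gene. ERF105 thus stood at place 4 in ago1-27 and at place 2 in wild type. The highest and lowest factor were 51.4-fold apart in ago1-27 and 42.5-fold apart in wild type.

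Several of the factors lie next to another ERF gene, and the genes of a pair did not always have ratios on the same side of 1. ERF6 and ERF1A, another activator of the same group, are divergent neighbours on chromosome 4 with 5041 bases and no gene between them. ERF1A was 8.09 RPKM in ago1-27 and 22.8 RPKM in wild type, 2.82-fold lower. ERF2 and ERF5 are divergent on chromosome 5 with 6924 bases and 2 annotated genes between them, and both were called lower. The ratios of ago1-27 to wild type were thus below 1 for both genes of each of these pairs.

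ERF11 has ERF12, a repressor of the same group, as its convergent neighbour on chromosome 1, 2668 bases away, and this gene differed in the other direction. ERF12 was 6.03 ± 0.253 RPKM in ago1-27 and 1.16 ± 0.146 RPKM in wild type (SD, n = 3 each). Its 3 ago1-27 libraries held 63, 63 and 67 reads and its 3 wild-type libraries 16, 10 and 11 reads. The ratio was 5.22 for ERF12 and 0.452 for ERF11. ERF107, which lies 832 bases from ERF104 on the same strand, had no row in the table.

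**Figure D3:**
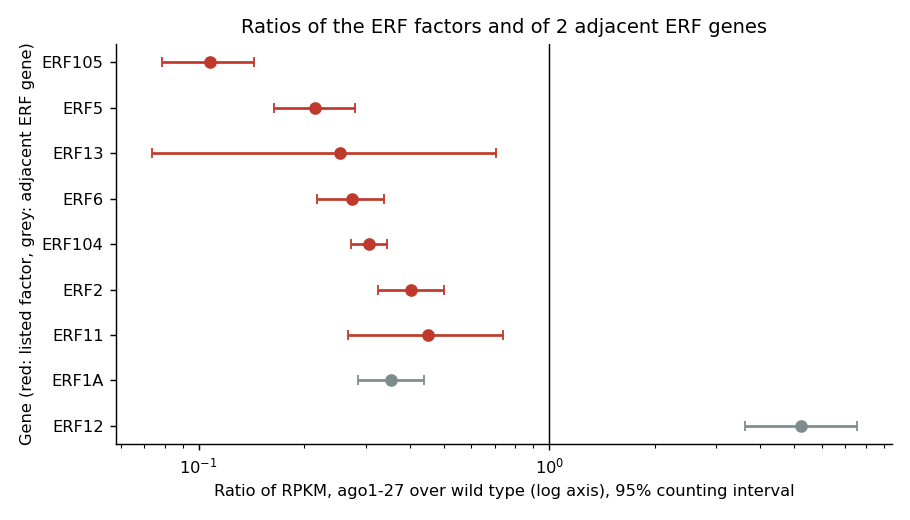
Ratio of RPKM in ago1-27 over wild type on a log axis, with 95% intervals for counting error, for the 7 measured ERF factors (red) and for the adjacent genes ERF1A and ERF12 (grey). All 7 intervals lie below 1, ERF105 is the lowest at 0.107, and ERF12 lies above 1 at 5.22. The share of all rows with an interval on 1 side of 1 was not computed, and nearly every row differed by 1.5-fold or more.

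The wider AP2/ERF family had genes on both sides. Of 146 loci annotated with the domain in TAIR10.1, 57 were in the table, and 50 of these were not among the listed factors. Of the 50, 24 were lower and 26 higher in ago1-27, that is 48% lower, against 30.6% of all rows. With 14 called lower (28%) and 6 called higher (12%), against 10.5% and 11.3% of the table, lower calls were also more common among these other family genes than in the table. No test was run on these shares. The number higher was 25 with the median-ratio rescaling and 26 with quantile normalization. Ranked by ratio from the lowest, the 7 factors stood at 6 (ERF105), 13 (ERF5), 15 (ERF13), 17 (ERF6), 19 (ERF104), 23 (ERF2) and 24 (ERF11) of the 57.

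**Figure D4:**
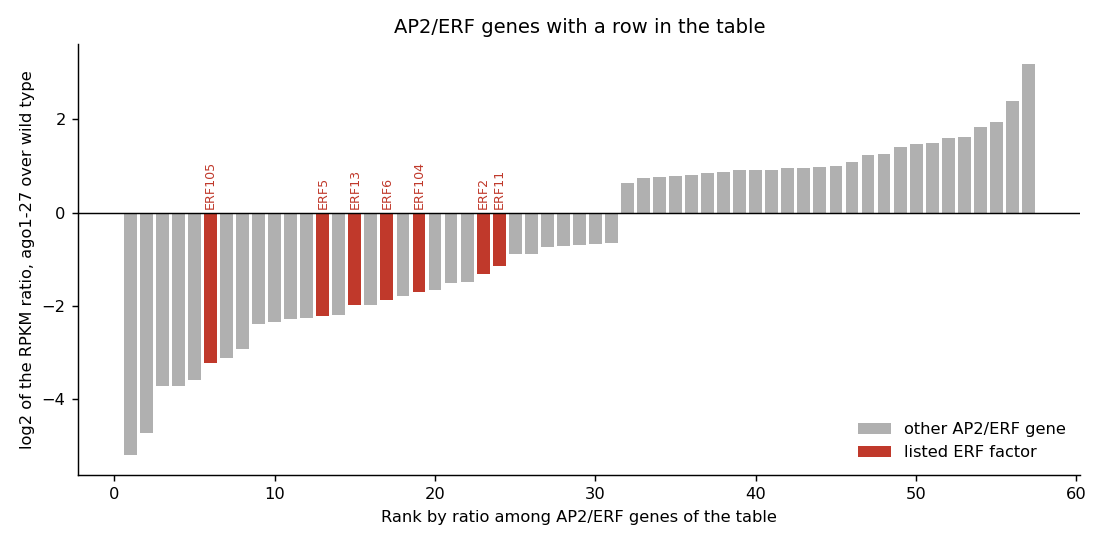
log2 ratio of RPKM, ago1-27 over wild type, for the 57 AP2/ERF genes of the table in order of the ratio, with the listed ERF factors in red and labelled. The 7 factors lie between ranks 6 and 24, among the 31 genes with a ratio below 1.

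Few other genes of the same ERF groups had rows. Of 9 further genes of the activators' group, 2 were measured, ERF1A and ERF106, and ERF106 was 70.6 RPKM in ago1-27 and 37.6 RPKM in wild type, which did not pass the threshold. Of 6 further repressors, 2 were measured, ERF12 and ERF8, and ERF8 was 9.82 RPKM in ago1-27 and 16.0 RPKM in wild type, also not called. ERF8 was called lower with the median-ratio rescaling, where 28.9% of the table was called lower. Of 13 genes of the hypoxia-related group and the group of ERF109, 4 were measured and 0 were called. For comparison, 10.5% of the table was called lower and 11.3% higher. Of the 4 genes, 3 had ratios above 1, and ERF109 had a ratio below 1. ERF109 was 0.594 RPKM in ago1-27 and 1.86 RPKM in wild type, 3.14-fold lower, from 1 library per genotype. The number called lower was 1 with a pseudocount of 0.1 or 0.5, with none, and under both rescalings. The table's lower calls rose under these settings too.

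Ethylene, the hormone after which the family is named, is made by way of the precursor ACC. ACC synthase makes this precursor and ACC oxidase turns it into the gas. Of 14 genes of ethylene synthesis 6 were measured, with 1 called higher and 1 called lower, against 11.3% and 10.5% of the table. The number called lower was 3 with a pseudocount of 0.1 or 0.5, with none, and with the median-ratio rescaling, and 2 with quantile normalization. The table's lower calls rose under these settings too, from 694 to 986, 855 and 1017 with the 3 changes of pseudocount. ACS6, the stress-induced ACC synthase that MPK3 and MPK6 stabilise, was 4.32 RPKM in ago1-27 and 30.2 RPKM in wild type, 6.98-fold lower (5.62 to 8.70). ACO3, an ACC oxidase, was 5.48 RPKM in ago1-27 and 1.68 RPKM in wild type, and its call was lost under both rescalings.

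Of 13 genes of ethylene perception and signalling 5 were measured, with 0 called higher and 2 called lower, against 11.3% and 10.5% of the table. These were EBF1 and EBF2, F-box proteins that mark the transcription factor EIN3 for degradation. EBF2 was 19.1 RPKM in ago1-27 and 71.6 RPKM in wild type, 3.75-fold lower, and EBF1 was 41.8 RPKM in ago1-27 and 88.5 RPKM in wild type, a ratio of 0.472. EIN3, EIL1 and EIN2 had no row in the table. The receptor gene ERS2 was 3.82 RPKM in ago1-27 and 8.25 RPKM in wild type, and the receptor gene EIN4 was 10.3 RPKM in ago1-27 and 6.46 RPKM in wild type. Neither was called, and the ratio of EIN4 came below 1 with the median-ratio rescaling. With a pseudocount of 0.1 or 0.5, with none, and under both rescalings, 3 genes of this list were called lower, ERS2 among them. The table's lower calls rose under these settings too.

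In the MAP kinase cascades 8 of 13 genes were measured, 1 called higher and 1 called lower, which is near the share of the whole table (11.3% and 10.5%). The number called lower was 3 with the median-ratio rescaling and 2 with quantile normalization. MPK3, the kinase upstream of several ERFs, was 72.1 RPKM in ago1-27 and 199 RPKM in wild type, 2.76-fold lower. MKK1, a kinase of the MPK4 pathway, was 43.5 RPKM in ago1-27 and 13.5 RPKM in wild type, a call that was lost with the median-ratio rescaling.

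The proteins best known as outputs of ERF1 and ORA59 stood opposite to the 7 measured factors. Of 8 such genes 7 were measured, and 7 were called higher in ago1-27, against 11.3% of the table, with a median log2 ratio of 3.04. The plant defensin PDF1.2 was 59.7 RPKM in ago1-27 and 5.19 RPKM in wild type, and PDF1.3 was 57.0 RPKM in ago1-27 and 6.92 RPKM in wild type. The osmotin OSM34, an antifungal protein, was 9.49 RPKM in ago1-27 and 0.982 RPKM in wild type. All 7 also had ratios above 1 under both rescalings, but 5 were then called higher, against 2.95% of the table with the median-ratio rescaling and 6% with quantile normalization. The 2 that lost the call were PR4 and CHI-B. PDF1.2, PDF1.2b, PDF1.2c and PDF1.3 are nearly identical in sequence, so the split of reads among them is uncertain, and ERF1 and ORA59 themselves were not analysed here.

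Genes of the leaf network around ERF5 and ERF6 stood mostly on the side of the 7 factors. Of 12 genes 7 were measured, with 4 called lower and 0 called higher, against 10.5% and 11.3% of the table. The camalexin regulator WRKY33 was 30.0 RPKM in ago1-27 and 125 RPKM in wild type, 4.18-fold lower. WRKY40, a repressor in immunity, was 4.54-fold lower, the zinc-finger repressor ZAT10 3.85-fold lower, and MYB51, a regulator of indole glucosinolates, 2.74-fold lower in ago1-27. WRKY28 was the 1 gene of the 7 with a ratio above 1, at 2.89 RPKM in ago1-27 and 1.16 RPKM in wild type, not called. It was called higher with a pseudocount of 0.1 or 0.5 and with none, while the number called lower stayed at 4. The table's higher calls rose under these settings too.

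Other rapid stress genes had the same direction throughout. Of 20 genes 16 were measured, all 16 were lower in ago1-27, and 10 were called lower, against 10.5% of the table. With the median-ratio rescaling 16 were called lower, against 28.9% of the table. TCH4, a touch-induced cell wall enzyme, was 130 RPKM in ago1-27 and 685 RPKM in wild type, 5.28-fold lower. SZF1, a salt-induced zinc-finger protein, was 21.1 RPKM in ago1-27 and 113 RPKM in wild type, 5.35-fold lower, and TCH2, a calmodulin-like protein, was 33.4 RPKM in ago1-27 and 144 RPKM in wild type, 4.30-fold lower. The CAMTA factors, which are known to switch on such genes through calmodulin, had no row in the table. This list, the network list and the lists of ERF groups share 5 measured genes (ZAT10, WRKY33, WRKY40, ERF8 and ERF109), so their counts are not separate.

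**Figure D5:**
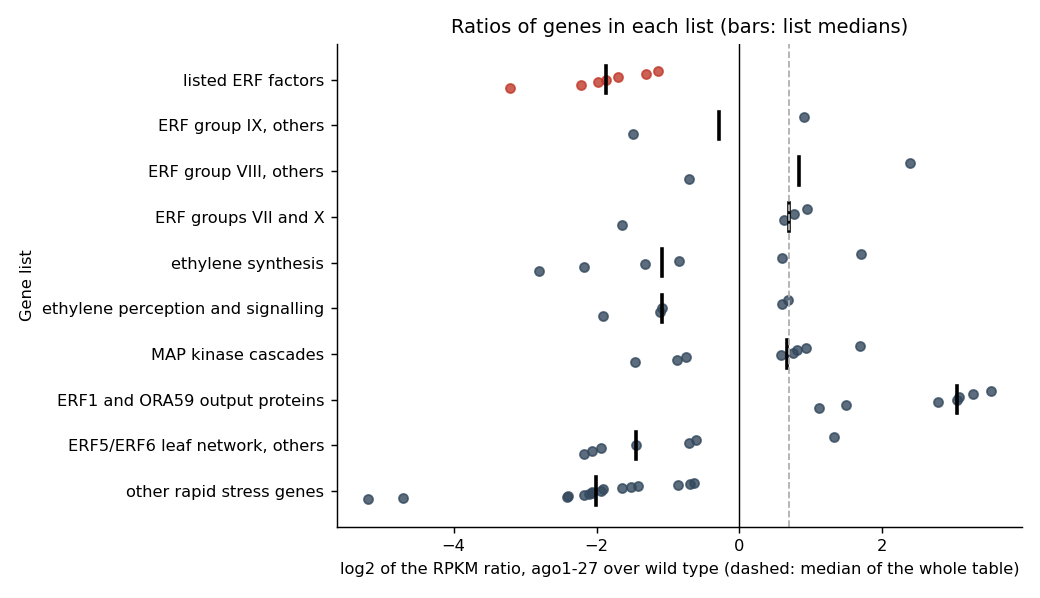
log2 ratio of RPKM, ago1-27 over wild type, for each measured gene of each list (points), with list medians (black bars) and the median of the whole table at 0.70 (dashed line). The listed ERF factors and the other rapid stress genes lie wholly below 0, and the ERF1 and ORA59 output proteins lie wholly above 0.

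The promoters of the factors were searched for elements known from ERF and stress regulation, in the 250 bases before each gene start (RefSeq, TAIR10.1), on both strands. ERF2 and ERF11 are shown because they hold the less common elements, and ERF104 because it is the factor with the highest level and holds none of the 4. Capitals mark matches to GCCGCC (GCC box), CACGTG (G box) or TTGAC (W box core, shown as GTCAA on the other strand), and each line runs 5′ to 3′ toward the gene start.
ERF2 promoter, chr5:19172957-19173206, minus strand: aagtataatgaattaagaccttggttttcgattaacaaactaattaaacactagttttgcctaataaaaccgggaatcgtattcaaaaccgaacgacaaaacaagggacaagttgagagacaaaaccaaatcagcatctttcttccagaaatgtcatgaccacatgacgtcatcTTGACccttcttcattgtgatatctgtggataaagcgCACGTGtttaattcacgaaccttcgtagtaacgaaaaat
ERF11 promoter, chr1:9956981-9957230, minus strand: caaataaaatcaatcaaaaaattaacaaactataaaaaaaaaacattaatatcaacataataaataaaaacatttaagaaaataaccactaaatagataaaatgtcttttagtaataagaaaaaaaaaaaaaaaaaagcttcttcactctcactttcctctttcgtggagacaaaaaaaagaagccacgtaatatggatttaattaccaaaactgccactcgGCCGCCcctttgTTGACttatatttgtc
ERF104 promoter, chr5:24767733-24767982, minus strand: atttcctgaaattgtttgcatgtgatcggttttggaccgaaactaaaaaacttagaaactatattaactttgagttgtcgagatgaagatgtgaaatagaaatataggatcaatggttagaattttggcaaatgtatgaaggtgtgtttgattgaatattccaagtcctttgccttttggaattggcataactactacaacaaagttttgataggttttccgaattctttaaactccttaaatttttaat

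The GCC box GCCGCC was found before 1 of the 7 factors, ERF11, and before 1.87% of all 27443 promoters. In ERF11 it ends close upstream of a W box core. The G box CACGTG was found before 1 of 7, ERF2, and before 6.49% of all promoters. The W box core TTGAC, the letters shared by WRKY sites, was found before 5 of 7 (ERF2, ERF5, ERF11, ERF13 and ERF105) and before 44.9% of all promoters. The rapid stress response element CGCGTT was found before 0 of 7 and 2.59% of all promoters. None of these matches overlapped each other, and a match is a run of letters, not a measured site. The factors with the element-bearing promoters spanned the range of ratios, with ERF105 and ERF5 at the lower end and ERF2 and ERF11 at the upper end.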

How the data were processed

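Total RNA of tissue labelled as flower buds was read by the authors as single ends of 50 nt, without strand, per the labels' protocols. Per the submitters' processing notes, TopHat2 2.0.11 and TAIR10 were used; how reads were counted, and by which rule the 6791 rows were selected, is not given in the sources used here. Per the file headers, the deposited table held 1 RPKM value per genotype and their ratio, ago1-27 over wild type; the deposited ratio equalled the quotient of the RPKM values.

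The 10 genes and all gene lists were chosen with earlier results of these data known. Genes were matched by identifier. Genes named were the 10 factors, AGO1, adjacent ERF genes and up to 4 per list by the largest difference in log2(RPKM + 1); AT5G51180, WRKY28, PR4, CHI-B and the genes under other observations were named after their values were seen. A call needed a difference of 1 and at least 1 RPKM in one genotype or both, a minimum that 185 rows missed. Because there was 1 value per genotype, no test was run.

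Library totals were recovered from RPKM steps between 8000000 and 20000000 reads, which gave 3 totals per genotype. In 688 rows (10.1%) both values were whole reads of 1 library per genotype, 85 of them only at a length over 1.1 times the longest annotated transcript. Means over 3 libraries were split only where the split was unique. Exact (Clopper-Pearson) 95% intervals on the ratio of reads used those reads, or reads estimated from the TAIR10.1 transcript length and mean totals of 11955563 (ago1-27) and 11845532 (wild type). Recovered lengths were shorter than annotated for ERF5 (1191 against 1302 bases), ERF11 (972 against 1187), ERF13 (932 against 1113) and ERF12 (893 against 1344). For ERF109 both were 1385 bases. Estimated reads are too high for any gene whose value used a shorter length than the annotated one. Recovery and calls were tested on simulated data. Locations and promoters come from RefSeq TAIR10.1; protein sequences were not compared. Alternatives were other pseudocounts and RPKM minimums, 2 rescalings, a promoter window reaching 50 bases past the start and, added after the data were seen, leaving out rows from 1 library. Software was matplotlib 3.10.9, numba 0.67.0, scipy 1.17.1, pandas 2.3.3 and numpy 2.4.6 under Python 3.11.15.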

Additional observations from a re-analysis of the deposited data

How the results depend on the processing

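All 7 measured ERF factors had lower values in ago1-27 under every alternative that gave them a value, and the number called lower ranged from 5 to 7 over the 8 alternatives, against 5 as reported. ERF11 and ERF13 passed the threshold under 9 combinations of gene and setting, and no factor lost its call. Most alternatives could not have turned a factor round. Pseudocounts, RPKM minimums and leaving out rows do not change the side of a ratio, and the median-ratio rescaling lowers every ratio. Only quantile normalization could have moved a ratio from below 1 to above 1, and it moved none of the 7. Whole-table counts depended on the setting. The number of genes called, 1442 as reported, was 2336 with a pseudocount of 0.1 and 2442 with none. Those called higher, 748 as reported, were 1350 with a pseudocount of 0.1, 1425 with none, 191 with the median-ratio rescaling and 395 with quantile normalization. Those called lower, 694 as reported, were 986 with a pseudocount of 0.1, 855 with 0.5 and 1017 with none. They were 1870 with the median-ratio rescaling and 1212 with quantile normalization. The first rescaling moved the median log2 ratio of the table by 0.70, and the second left it at 0.38. The cause of these shifts was not tested. The promoter window with 50 more bases gave the 7 factors the same counts. No paired analysis was possible because the table gave each genotype 1 value and not every row was split into libraries; the ratios of ERF5 within library pairs stand in the report. The table holds mainly genes that differed by 1.5-fold or more, so shares of called genes describe that selection, and depth limits ERF13, at 5 and 18 reads, more than the other factors.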

Other observations

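Other branches of the AP2/ERF family, looked at after their values were seen, lay on both sides of the listed factors. All 5 genes of the table that RefSeq names DREB or CBF, factors of cold and drought responses, were lower in ago1-27, against 30.6% of all rows, and 3 of them were called lower, against 10.5% of the table. The annotation holds 9 genes so named, and relatives under other names were left out, so the 5 do not stand for a whole branch. Of the 50 family genes outside the listed factors 24 were lower and 26 higher, RAP2.10 (ratio 2.35) and TINY2 (3.84) among the latter. DREB26 was 11.6 RPKM in ago1-27 and 45.6 RPKM in wild type, and DREB2A was 1.98 RPKM in ago1-27 and 10.4 RPKM in wild type. CBF1 and CBF2 stood at 0.0463 and 0.0287 RPKM in ago1-27 and at 1.22 and 1.06 RPKM in wild type, which is about 1 read or fewer in an average ago1-27 library. ESE3, a family member linked to ethylene and salt, was 3.67 RPKM in ago1-27 and 44.0 RPKM in wild type, 12.0-fold lower, a larger difference than that of ERF105.

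Of 12 annotated genes that RefSeq names CRF, the cytokinin response factors, 7 were in the table. All 7 were higher in ago1-27, by 1.76-fold to 3.56-fold, but so were 4711 of all 6791 rows. All 7 kept ratios above 1 under both rescalings. CRF6 was the 1 of them called higher, against 11.3% of the table, at 10.5 RPKM in ago1-27 and 3.79 RPKM in wild type. The values of 3 of the 7 came from 1 library per genotype.

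Every one of the 688 rows whose values were whole reads of 1 library per genotype used the same pair of libraries in that pairing, with 210, 250 and 228 rows for the 3 pairs, and no row combined libraries of different pairs. ERF11, ERF13 and ERF109 each came from a different pair.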
